A study of Mus musculus with 23 samples.

Results

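Axon guidance ligands and receptors were examined in marrow-depleted bone from female mice with and without type 1 diabetes (T1D). They were taken by gene symbol as semaphorins (Sema), plexins (Plxn), neuropilins (Nrp1 and Nrp2), ephrins (Efna and Efnb), Eph receptors (Epha and Ephb), Slit and Robo genes, netrins (Ntn), Unc5 receptors, Dcc and Neo1. Of the 17644 genes in the table of length-scaled transcript abundances (TPM), 70 had such a symbol. Of these, 62 had at least 10 counts in at least 5 mice and were among the 14364 genes tested. Epha1, Epha10, Epha5, Epha6, Epha8, Ntn5, Sema5b and Unc5d had fewer counts and were not tested, and the highest count of any of them in a mouse was 18, for Sema5b.

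Guidance ligands are secreted or membrane-bound proteins that steer growing axons by attraction or repulsion. Slits act through Robo receptors, semaphorins through plexins with neuropilins as co-receptors for the secreted class, ephrins through Eph receptor kinases, and netrins through Dcc, neogenin and Unc5 receptors. The same proteins act outside the nervous system, where they take part in blood vessel growth and in the exchange of signals between osteoblasts, the cells that form bone, and osteoclasts, the cells that resorb it.

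The 23 mice were C57BL6/N females, and femur and tibia from 1 hind limb were pooled into 1 library per mouse at 11 weeks of age. Control mice, which received saline, were WT (WT Control, n = 5) or labelled as carrying a global Sarm1 knockout (KO Control, n = 6). T1D mice of both genotypes (WT T1D, n = 6, and KO T1D, n = 6) had received streptozotocin, a toxin of the insulin-producing β cells, at 100 mg/kg per injection and had been diabetic for 3 weeks. The knockout removes an NADase that drives axon degeneration from every cell, so that axons and bone cells of these mice share it.

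Total counts per mouse ranged from 16938101 to 20135592. Counts were scaled to library size with TMM factors and are given as CPM. Gene-level Sarm1 RNA was low in every group. Among Control mice its mean was 1.17 CPM in WT and 0.799 CPM in mice labelled KO, and among T1D mice it was 0.687 CPM in WT and 1.19 CPM in mice labelled KO, so it did not separate the genotypes and the labels were used. By qPCR, a different measure, the study reported that Sarm1 was low in bone and significantly lower in knockout than in WT bone. All 4 genes with an adjusted p under 0.05 between KO Control and WT Control lay on chromosome 11, which carries Sarm1. These genes (Ccdc92b, Xaf1, Vtn and Tlcd2) were called in the same direction between KO T1D and WT T1D, with log2 fold changes from -3.75 for Ccdc92b to 3.46 for Xaf1 (edgeR), so they differed between the labelled genotypes in both comparisons. They were named after their values were seen. The mice A3905 and A3906, both WT T1D, stood apart. Summed over 9 osteoblast markers they had 6086 and 4619 CPM, against 60664 to 118048 CPM in WT Control. Summed over 10 erythroid markers they had 123494 and 115929 CPM, against 51640 to 74276 CPM in WT Control. The edgeR counts of called genes and the fold changes of several genes are given with and without these mice. Fold changes of other genes, and all DESeq2 and limma results, are given only with them. Mouse IDs began with A17 in 3 WT T1D mice and 1 WT Control mouse, and with A36 to A39 in all others. Results restricted to the A36 to A39 mice are also given, whereas the A17 mice were too few to compare among themselves.

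The promoters of the called ligand and of the pair of genes that best show the other patterns are printed here, as the 250 bases before the transcription start listed by RefSeq in GRCm38.p6. For Nrp2 and Efnb1 the window ends where the annotated gene begins, whereas for Slit2 it ends 1864 bases after the annotated gene's first base, so it precedes an internal start. Promoters were found for 53 of the 62 tested genes. Capitals mark the GC box, GGGCGG or its reverse complement CCGCCC, and the TATA box, TATAAA. Slit2 was the only one of the 62 genes with an adjusted p under 0.05. Nrp2 had the highest TPM of all, and Efnb1 was, with Slit2, one of the genes whose WT T1D mice all lay below the WT Control mice in CPM.
Slit2, chr5:47982905-47983154, + strand: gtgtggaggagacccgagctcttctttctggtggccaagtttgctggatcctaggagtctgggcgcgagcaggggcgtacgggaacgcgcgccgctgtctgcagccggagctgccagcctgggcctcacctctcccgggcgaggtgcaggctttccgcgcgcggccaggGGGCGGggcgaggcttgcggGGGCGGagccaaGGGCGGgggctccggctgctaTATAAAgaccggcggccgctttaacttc
Nrp2, chr1:62703067-62703316, + strand: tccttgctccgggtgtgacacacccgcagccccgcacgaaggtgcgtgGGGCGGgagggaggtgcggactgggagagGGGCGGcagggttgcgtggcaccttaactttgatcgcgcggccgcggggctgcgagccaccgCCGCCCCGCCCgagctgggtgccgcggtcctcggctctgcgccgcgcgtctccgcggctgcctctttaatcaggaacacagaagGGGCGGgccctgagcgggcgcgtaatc
Efnb1, chrX:99135811-99136060, + strand: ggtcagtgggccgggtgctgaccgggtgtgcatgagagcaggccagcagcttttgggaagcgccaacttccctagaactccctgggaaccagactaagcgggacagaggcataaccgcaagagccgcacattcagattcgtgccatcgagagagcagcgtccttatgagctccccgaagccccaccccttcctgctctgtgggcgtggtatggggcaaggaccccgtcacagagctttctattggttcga
The Slit2 window held 3 GC boxes and a TATA box that began at position -28, the Nrp2 window held 5 GC boxes, and the Efnb1 window held 0. A GC box on either strand was found in 39 of the 53 promoters (73.6%), in 56.9% of the 11351 tested genes with a promoter, and in 32.9% of all 27025 promoters of the table. Among the 22 genes with a lower level in WT T1D at an unadjusted p under 0.05, 19 had a promoter and 17 of these held a GC box (89.5%). The TATA box was found in 2 of the 53 promoters (3.77%), against 7.05% of the tested genes. The RUNX core TGTGGT, on either strand, was found in 7 of the 53 (13.2%), against 11.2% of the tested genes. These matches are a description of letters in a window, and the motifs were chosen after the values were seen.

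In TPM, which allows levels of different genes to be compared, the 62 genes spanned a wide range in bone. Nrp2, a co-receptor for class 3 semaphorins and for VEGF-C, was highest with a mean of 76.2 TPM over the 23 mice. Sema4a (46.9 TPM), Sema4d (38.4 TPM) and Sema7a (31.6 TPM), semaphorins with roles in immune cells, followed. The semaphorin receptor Plxnd1 had 30.7 TPM and the netrin receptor Unc5b 29.7 TPM. From Sema7a down to Unc5b, the steps between neighbours were smaller than their SDs over mice, which ran from 5.63 TPM for Plxnd1 to 12.2 TPM for Unc5b. The leading Slit was Slit3 (13.3 TPM) and the leading Robo was Robo4, the endothelial member of its family (12.3 TPM). Efnb1 led the ephrins (22.98 TPM), Epha2 the Eph receptors (11.0 TPM) and Ntn4 the netrins (4.25 TPM). At the other end, Dcc, the classic netrin receptor of neurons, had 0.174 TPM and Slit1 0.306 TPM, and counts this low limit the precision of their values.

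**Figure D1:**
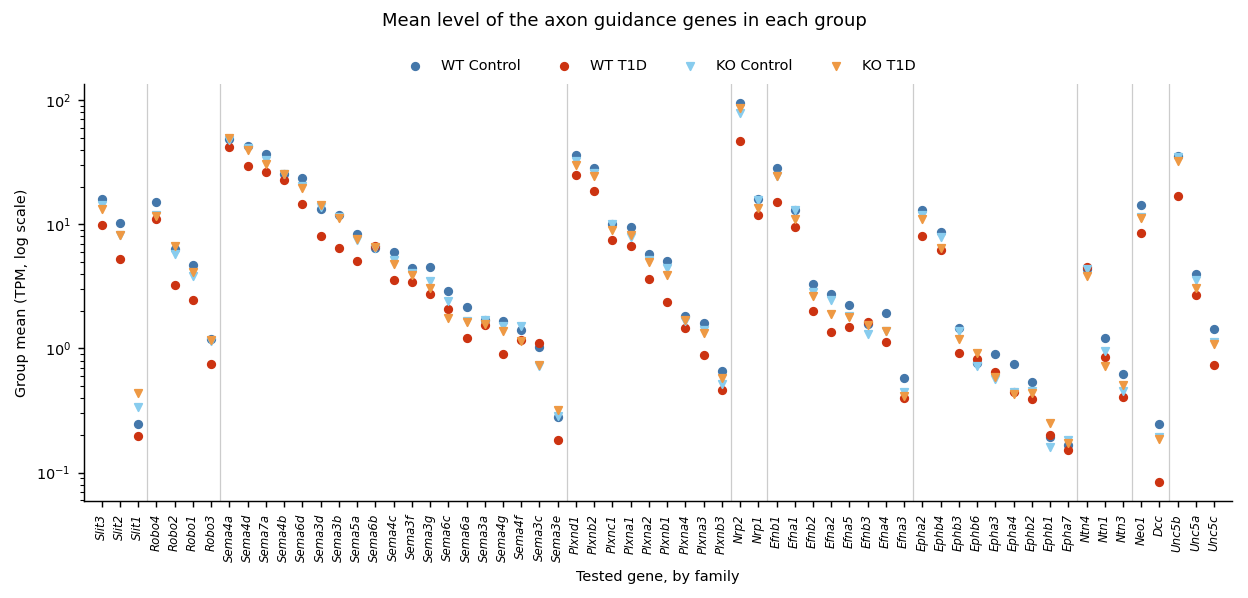
Mean level in TPM (log axis) of the 62 tested genes in each of the 4 groups, with genes ordered by family and, within it, by level. Nrp2 is highest (mean 76.2 TPM) and Epha7 lowest (0.168 TPM). The WT T1D mean is the lowest of the 4 groups in 51 of the 62 genes. Of all genes, 88.3% have a log2(TPM + 1) fold change below 0 for T1D in WT mice. The count of 51 therefore cannot be read as particular to these genes.

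Summed over the 62 genes, WT Control mice had 652 ± 91.6 TPM (SD, n = 5) and WT T1D mice 424 ± 114 TPM (n = 6). The sums were 587 ± 79.3 TPM (n = 6) for KO Control and 574 ± 48.6 TPM (n = 6) for KO T1D. In WT T1D the sums ranged from 286 to 575 TPM and overlapped those of WT Control, from 507 to 748 TPM. On the TPM scale the median of all genes was itself lower in WT T1D, by -0.24 in log2(TPM + 1), so that part of this difference is shared with most genes. The WT T1D mean was the lowest of the 4 group means in 51 of the 62 genes in TPM and in 38 in CPM. The same count was not made over all genes. For T1D in WT mice, the log2(TPM + 1) fold change was below 0 in 56 of the 62 genes and in 88.3% of all genes. The count of 51 in TPM therefore cannot be read as particular to the 62 genes. The tests that follow therefore use TMM-scaled counts, for which the median log2 fold change of all genes was -0.01.

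The effect of T1D in WT mice was tested first. Slit2, a secreted ligand of the Robo receptors, fell, and it was the only one of the 62 genes called at an adjusted p under 0.05 in edgeR, with 0 genes called higher. Of all genes tested, 0.828% were called lower. At an unadjusted p under 0.05, 22 of the 62 genes were lower and 1, Sema6b, was higher, while 11.2% of all genes were lower and 11.0% higher. The log2 fold change was below 0 in 51 of the 62 genes, with a median of -0.33, against 51.9% of all genes below 0. With DESeq2, 12 genes were called lower and 0 higher, with 2.85% of all genes called lower. These 12 were Slit2, Nrp2, Plxnb1, Plxnb2, Sema4c, Sema5a, Sema6a, Sema6d, Efna2, Efnb1, Efnb2 and Dcc, drawn from the Slit, semaphorin, ephrin and netrin systems. All 6 WT T1D mice lay below all 5 WT Control mice in 2 genes, Slit2 and Efnb1, and above them in 0, while 0.877% of all genes were wholly below. On the TPM scale, limma called 36 of the 62 genes lower with log2(TPM + 1) and 35 with log2(TPM + 0.1), where 35.3% and 35.5% of all genes were called lower. In bulk RNA, fewer cells of a type and less RNA per cell cannot be told apart.

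**Figure D2:**
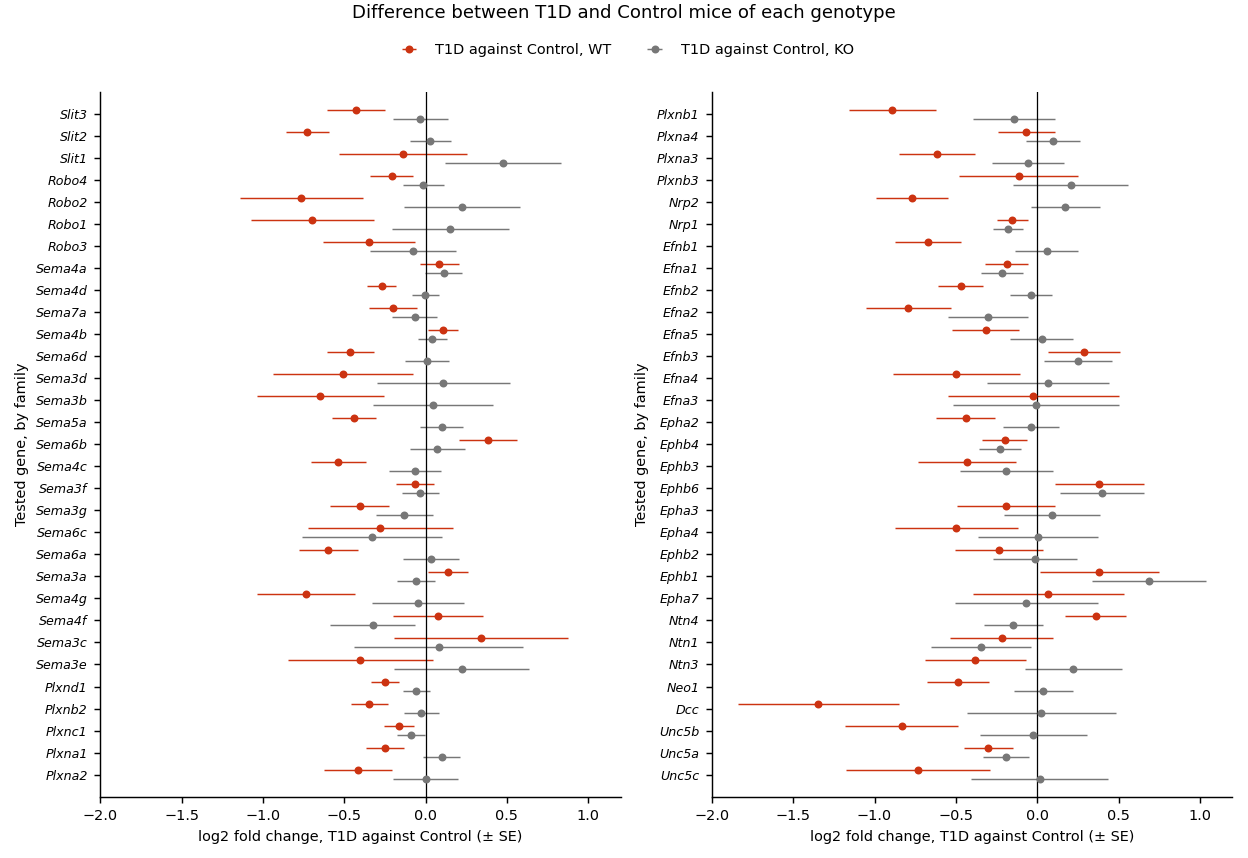
Log2 fold change of T1D against Control (x axis, ± SE) for each of the 62 genes in WT mice and in mice labelled KO, with genes ordered by family. In WT mice 51 genes lie below 0, with a median of -0.33, and in mice labelled KO 31 lie below 0. Of all genes, 51.9% lie below 0 in WT mice and 50.6% in mice labelled KO.

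Slit2 had 56.7, 71.9, 76.7, 48.9 and 70.0 CPM in the WT Control mice. In WT T1D it ranged from 31.6 to 48.1 CPM with a median of 38.3 CPM. Every WT T1D mouse was thus below every WT Control mouse, though the highest WT T1D mouse was close to the lowest WT Control mouse. The log2 fold change of Slit2 was -0.73 ± 0.13 (SE, edgeR adjusted p = 0.0209). Without A3905 and A3906 the Slit2 difference was -0.62 ± 0.14 (adjusted p = 0.131), and within the A36 to A39 mice it was -0.81 ± 0.16 (adjusted p = 0.0102). A1787, which has an A17 ID, had the lowest Slit2 value of the WT T1D mice (31.6 CPM), so the low values were not limited to A3905 (33.0 CPM) and A3906 (32.6 CPM).

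Slit3, which is made in bone, had 36.3, 55.6, 62.6, 45.5 and 67.6 CPM in WT Control, and 27.7 to 53.4 CPM with a median of 39.9 CPM in WT T1D. These groups overlapped (log2 fold change -0.43, edgeR adjusted p = 0.159). Among their receptors, Robo1 and Robo2 were at their lowest in A3905 and A3906. Robo2 had 2.72 and 3.06 CPM there, and its difference over all WT mice was -0.76 ± 0.38 (edgeR adjusted p = 0.235). Robo4 had 26.8 to 36.5 CPM in WT Control and 19.6 to 31.4 CPM in WT T1D (edgeR adjusted p = 0.359). All 3 Slit genes and all 4 Robo genes had a log2 fold change below 0, and Slit2 was the only one of the 7 called. Over all genes, 51.9% were below 0 and 0.828% were called lower.

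Of the semaphorins, 7 of 19 were lower in WT T1D at an unadjusted p under 0.05, 1 was higher and 0 were called at an adjusted p under 0.05. At that unadjusted p, 11.2% of all genes were lower and 11.0% higher. Sema5a, a transmembrane semaphorin with thrombospondin repeats, had 47.5, 69.9, 68.4, 60.8 and 56.0 CPM in WT Control and 32.3 to 53.1 CPM, with a median of 47.3 CPM, in WT T1D. Its low values were spread over the group: A1787 had 35.5 CPM and A3906 44.8 CPM. For Sema5a, the log2 fold change was -0.44 ± 0.14 over all WT mice (edgeR adjusted p = 0.0713) and -0.35 without A3905 and A3906.

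Sema4d, which osteoclasts make and which restrains osteoblasts through Plxnb1, had 137, 119, 123, 132 and 135 CPM in WT Control. It had 80.4 to 133 CPM in WT T1D, with a median of 109 CPM, and only the highest of these mice reached the WT Control range. In Sema4d, the log2 fold change was -0.27 ± 0.09 (edgeR adjusted p = 0.0861). Sema4c, Sema6a and Sema6d, transmembrane semaphorins, had log2 fold changes of -0.54, -0.60 and -0.46, with edgeR adjusted p values of 0.0735, 0.0640 and 0.0711. Sema4c had 11.5, 18.6, 13.8, 12.5 and 18.2 CPM in WT Control and 7.75 to 15.7 CPM, with a median of 9.22 CPM, in WT T1D, where all but 1 mouse lay below WT Control. Sema6a had 6.63, 9.76, 9.55, 11.8 and 12.4 CPM in WT Control and 4.40 to 8.89 CPM in WT T1D, so the groups overlapped. In Sema6d, 84.9 to 104 CPM in WT Control stood against 50.2 to 86.5 CPM in WT T1D, and the groups overlapped in 1 WT T1D mouse.

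Sema3g, a secreted semaphorin made by arterial endothelium, had 7.07, 16.95, 12.26, 10.60 and 16.92 CPM in WT Control and 7.77 to 11.8 CPM in WT T1D (log2 fold change -0.41, edgeR adjusted p = 0.187). Its highest WT T1D values were those of A3905 and A3906 (11.8 and 11.7 CPM), and without them the log2 fold change was -0.58. Sema4g, at low level, had a mean of 4.82 CPM in WT Control and 2.89 CPM in WT T1D (log2 fold change -0.74, edgeR adjusted p = 0.152). Sema7a, a lipid-anchored semaphorin, had 54.5 to 97.4 CPM in WT Control and 44.3 to 87.5 CPM in WT T1D, and its groups overlapped over most of their range.

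Sema3d, a secreted semaphorin, showed most clearly how far A3905 and A3906 departed from the rest of the WT T1D group. It had 5.89 and 5.90 CPM in these mice, whereas the other WT T1D mice had from 50.2 to 74.0 CPM and WT Control from 35.2 to 70.5 CPM. Over WT mice, the log2 fold change of Sema3d was -0.51 with the pair and 0.0035 without it. Sema6b went the other way, with 32.2 and 31.3 CPM in A3905 and A3906 and 14.7 to 17.8 CPM in the other WT T1D mice. Its log2 fold change was 0.38 over all WT mice and -0.02 without the pair. Sema4a, made by dendritic and other immune cells, likewise had 144 and 126 CPM in A3905 and A3906 and 94.0 to 99.6 CPM in the other WT T1D mice.

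Nrp2 had 296, 434, 375, 366 and 414 CPM in the WT Control mice. In WT T1D it ranged from 101 to 322 CPM with a median of 249 CPM. A3905 and A3906 had less than any other mouse of the series (101 and 104 CPM), and 2 of the other WT T1D mice reached the WT Control range. For Nrp2, the log2 fold change was -0.77 ± 0.22 (edgeR adjusted p = 0.0560), and -0.43 ± 0.11 without A3905 and A3906. Nrp1, the co-receptor shared by class 3 semaphorins and VEGF-A, had 49.7 to 67.3 CPM in WT Control and 42.2 to 64.6 CPM in WT T1D (log2 fold change -0.15).

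All 9 plexins, the signalling receptors of semaphorins, had a log2 fold change below 0 in WT mice, 5 of them at an unadjusted p under 0.05. Over all genes, 51.9% were below 0 and 11.2% were lower at that p. Plxnb1, the receptor of Sema4d, had 24.5, 29.9, 32.0, 25.3 and 32.4 CPM in WT Control. In WT T1D it had 5.89 and 5.55 CPM in A3905 and A3906 and 15.8 to 25.6 CPM in the others. Of those others, 3 were also below every WT Control mouse. For Plxnb1, this gave a log2 fold change of -0.89 ± 0.27 (edgeR adjusted p = 0.0628), and -0.50 ± 0.14 without A3905 and A3906. Plxnd1, the endothelial receptor of Sema3e, had 150 to 195 CPM in WT Control and 126 to 168 CPM in WT T1D, and here A3905 and A3906 (146 and 142 CPM) were not the lowest (log2 fold change -0.25 ± 0.09, edgeR adjusted p = 0.0937). Plxnb2, the most abundant B-type plexin, had 111, 128, 107, 117 and 152 CPM in WT Control and 70.5 to 115 CPM, with a median of 102 CPM, in WT T1D (log2 fold change -0.35 ± 0.11, edgeR adjusted p = 0.0808). Plxna3 had 5.59 to 7.61 CPM in WT Control, 2.26 and 2.02 CPM in A3905 and A3906, and 4.79 to 6.47 CPM in the other WT T1D mice. Plxna1 had 47.9 to 69.3 CPM in WT Control and 38.0 to 59.2 CPM in WT T1D (log2 fold change -0.25).

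**Figure D3:**
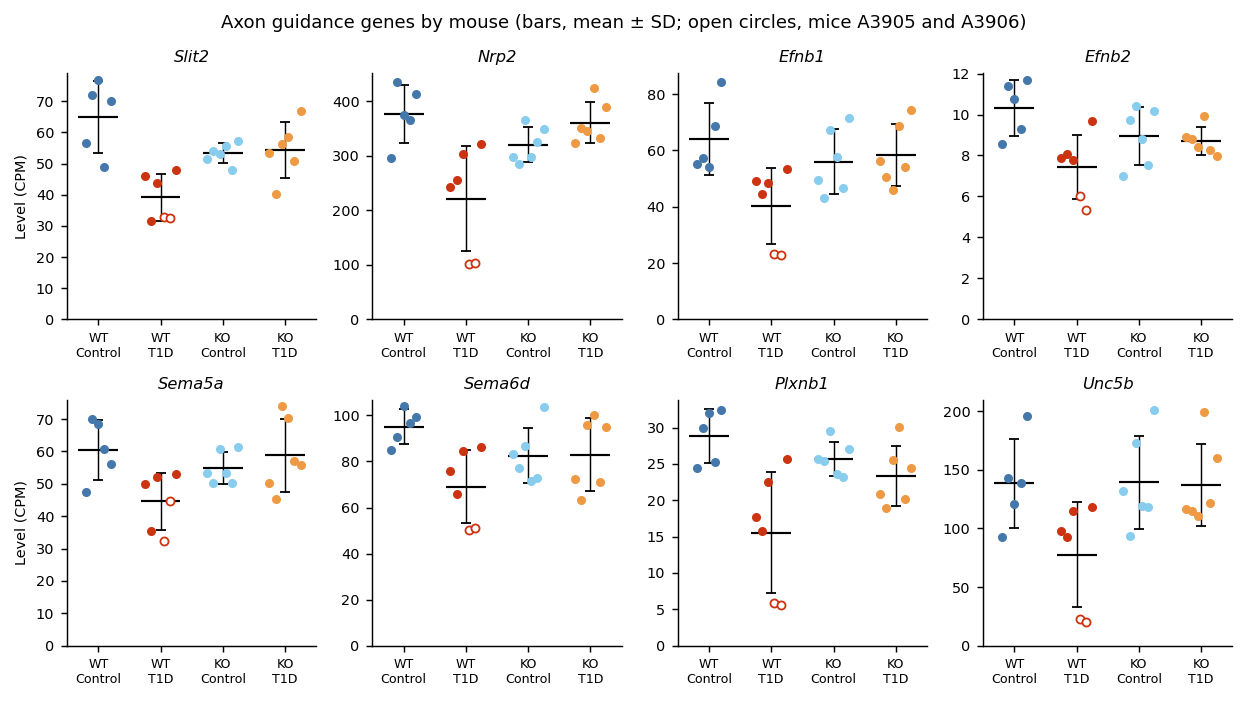
Level in CPM of 8 ligands and receptors in every mouse of the 4 groups, with the mean and SD as bars and the WT T1D mice A3905 and A3906 as open circles. Slit2 and Efnb1 have no overlap between WT Control and WT T1D, and Nrp2 (101 and 104 CPM), Plxnb1 and Unc5b are lowest in A3905 and A3906.

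Among the ephrins, Efnb1 and Efnb2, transmembrane ligands that signal in both directions with EphB receptors such as Ephb4 on osteoblasts, stood out. Efnb1 had 55.1, 57.4, 54.1, 68.7 and 84.3 CPM in WT Control. In WT T1D it had 23.2 and 22.9 CPM in A3905 and A3906 and 44.4 to 53.3 CPM in the others, so that every WT T1D mouse was below the lowest WT Control mouse. The highest WT T1D mouse was close to that mouse in CPM. In TPM the groups overlapped, with 22.67 in the highest WT T1D mouse and 22.43 in the lowest WT Control mouse. The log2 fold change of Efnb1 was -0.67 ± 0.20 (edgeR adjusted p = 0.0658), and -0.39 ± 0.16 without the pair. Efnb2 had 8.54, 11.4, 10.7, 9.30 and 11.7 CPM in WT Control and 5.32 to 9.67 CPM, with a median of 7.84 CPM, in WT T1D. Only 1 WT T1D mouse (9.67 CPM) lay within the WT Control range of Efnb2 (log2 fold change -0.47 ± 0.14, edgeR adjusted p = 0.0598). Efna2, a lipid-anchored ephrin at low level, had a mean of 3.87 CPM in WT Control and 2.23 CPM in WT T1D (edgeR adjusted p = 0.0848). Efna1, the leading A-type ephrin, had a log2 fold change of -0.19.

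Of the 9 Eph receptors, 6 had a log2 fold change below 0 in WT mice and 1, Epha2, was lower at an unadjusted p under 0.05. The shares of all genes were 51.9% and 11.2%. Epha2 had 24.6, 34.9, 26.1, 30.0 and 46.8 CPM in WT Control. In WT T1D it had 13.1 and 16.1 CPM in A3905 and A3906 and 28.0 to 29.4 CPM in the others, within the WT Control range. Its log2 fold change was -0.44 over all WT mice and -0.19 without the pair (edgeR adjusted p = 0.151 over all WT mice). Ephb4 had 18.3 to 30.5 CPM in WT Control and 18.6 to 25.2 CPM in WT T1D, a log2 fold change of -0.20 that did not pass the test. Ephb1, near the filter on low counts, had a log2 fold change of 0.38.

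The netrins were low in bone, and 0 of the 3 tested had an unadjusted p under 0.05 in WT mice (11.2% of all genes lower, 11.0% higher). Ntn4, the leading netrin, had 4.28 to 8.65 CPM in WT Control and 6.59 to 12.2 CPM in WT T1D (log2 fold change 0.36, edgeR adjusted p = 0.267). Their receptors included larger differences. Unc5b, which is also made by endothelium and macrophages, had 92.8, 143, 121, 139 and 196 CPM in WT Control. In WT T1D it had 22.8 and 20.4 CPM in A3905 and A3906 and 92.3 to 118 CPM in the others, so that the groups without the pair overlapped. For Unc5b, the log2 fold change was -0.83 ± 0.35 (edgeR adjusted p = 0.160) and -0.39 without the pair. Neo1, or neogenin, a receptor of netrins and repulsive guidance molecules, had a log2 fold change of -0.49 over all WT mice and -0.22 without the pair. Dcc had a mean of 1.70 CPM in WT Control, was at 0 and 0.0578 CPM in A3905 and A3906, and had 0.817 to 1.26 CPM in the other WT T1D mice.

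A3905 and A3906 were the lowest 2 of all 23 mice in 29 of the 62 genes, and the highest 2 of the WT T1D mice in 5 (Ephb1, Sema3g, Sema4a, Sema4f and Sema6b). The same counts were not made over all genes, so they cannot be read as particular to the 62 genes. Without A3905 and A3906, 0 of the 62 genes and 0 of all 14364 genes were called in WT T1D. Of all genes, 1575 had an unadjusted p under 0.05 in either direction in that fit. The median log2 fold change of the 62 genes was -0.17, and 13 of the 22 genes kept an unadjusted p under 0.05. These 13 were Dcc, Efna2, Efnb1, Efnb2, Nrp2, Plxnb1, Plxnd1, Sema3g, Sema4c, Sema5a, Sema6a, Sema6d and Slit2, and all 22 still had a log2 fold change below 0. The 22 genes were picked as lower in the fit with the pair, and both fits share all other mice. That choice favours a kept sign, and the share kept was not counted over all genes, so it is not independent support. Within the A36 to A39 mice, where the pair makes up most of WT T1D, 22 genes were called lower and 1 higher, with a median of -0.51, and 7.6% of all genes were called lower and 7.76% higher. With the mouse's erythroid score as a covariate, 0 of the 62 genes and 0 of all 14364 genes were called, and the median of the 62 was -0.05. At an unadjusted p under 0.05 there were 1 lower and 1 higher of the 62, and 623 of all genes in either direction. Slit2 was the only one of the 22 that kept an unadjusted p under 0.05 (log2 fold change -0.55 ± 0.16, unadjusted p = 0.00255, edgeR).

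**Figure D4:**
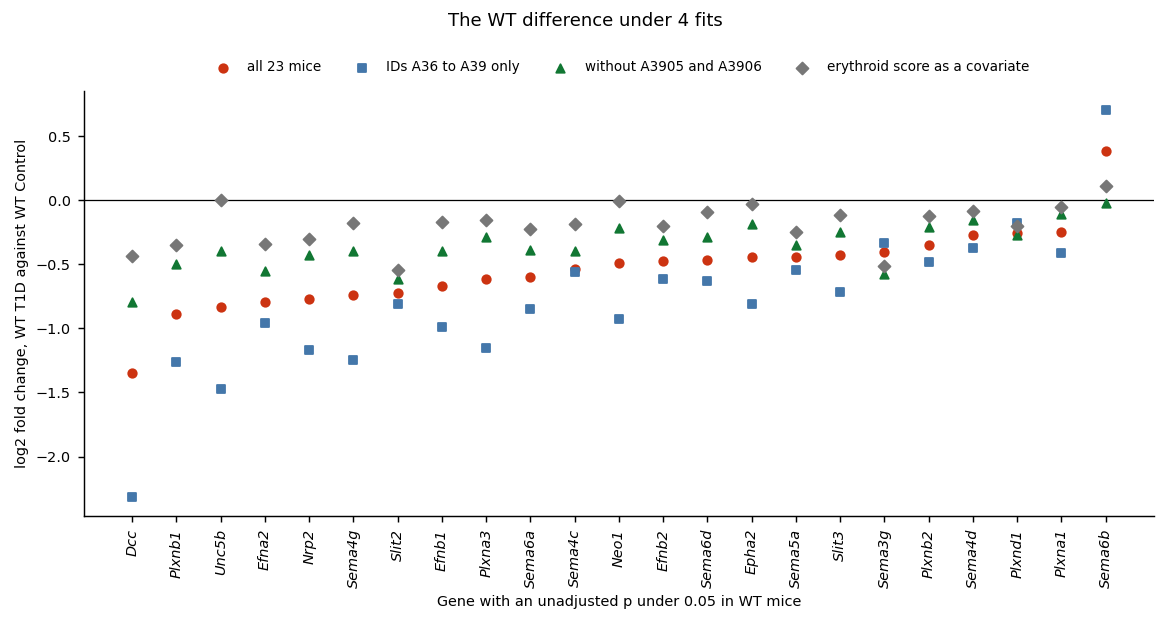
Log2 fold change of WT T1D against WT Control (y axis) for the 23 genes with an unadjusted p under 0.05, from all mice, from mice with IDs A36 to A39, without A3905 and A3906, and with an erythroid score as a covariate. Slit2 lies between -0.81 and -0.55 in all 4 fits, whereas Unc5b lies between -1.47 and 0.00048.

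Markers of several cell types moved with these genes in WT T1D. All 9 osteoblast markers had a log2 fold change below 0 and 2, Runx2 and Ibsp, were called lower. All 10 erythroid markers were above 0 and 5 were called higher. Over all genes, 51.9% were below 0, 0.828% were called lower and 1.5% higher. Of 5 chondrocyte markers tested, 5 were below 0 and 4 had an unadjusted p under 0.05. Their sums were 837 to 1875 CPM in WT Control and 174 to 1092 CPM in WT T1D, with 174 CPM in A3905 and 208 CPM in A3906. The 7 endothelial markers, which include Robo4 itself, were all below 0 with 0 called, and their sums ranged from 280 to 381 CPM in WT Control and from 236 to 332 CPM in WT T1D. Osteocyte markers were below 0 in 4 of 5 and osteoclast markers in 2 of 6, with 0 called in each list. Neutrophil markers were below 0 in 1 of 8, B lineage markers in 5 of 6 and skeletal muscle markers in 1 of 6, again with 0 called. Without A3905 and A3906, 0 of all genes were called in WT T1D, so none of the marker calls above remained. The part of any of these cell types in the lower guidance genes was not tested.

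Markers of neurons were low. Of 7 neuron markers, 3 were tested, and their sum ranged from 14.4 to 25.7 CPM over all groups, with 0 called. Nefl, Nefm, Elavl3 and Snap25 were too low to test. Of 7 Schwann cell markers, 6 were tested and 1, Mbp, was called higher in WT T1D (log2 fold change 0.42), though not without A3905 and A3906. The sum of the 6 ranged from 112.7 to 176.2 CPM over all groups. Sox10 was too low to test.

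Other genes of the pathway were taken from 2 lists. Of 35 signal transducers that act below guidance receptors, 30 had a log2 fold change below 0 in WT T1D, with a median of -0.20. Over all genes, 51.9% were below 0 and 0.828% were called lower, and of the 35 transducers 2 were called lower. These were Ngef, an exchange factor that acts below Eph receptors (log2 fold change -1.11 ± 0.27, edgeR adjusted p = 0.0446), and Srgap1, a GTPase-activating protein that binds Robo receptors (-0.72 ± 0.18, edgeR adjusted p = 0.0451). Neither was called in the fit without A3905 and A3906, where 0 of all genes were called. Srgap2, Arhgef11 and Dock1 followed with log2 fold changes of -0.42, -0.33 and -0.49, and did not pass the adjusted threshold. Of 20 other guidance ligands and co-receptors, 18 were tested, 13 were below 0 with a median of -0.13, and 0 were called. For T1D in mice labelled KO, 20 of the 35 and 11 of the 18 were below 0 and 0 were called. There, 50.6% of all genes were below 0.

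The same comparison was made in the mice labelled KO. Of the 62 genes, 0 were called in edgeR (0.0% of all genes), and 0 had an unadjusted p under 0.05 in either direction, against 3.15% of all genes. The log2 fold change was below 0 in 31 of the 62, with a median of 3.4e-05, against 50.6% of all genes below 0. DESeq2 also called 0. Slit2 had 48.1 to 57.1 CPM with a median of 53.6 CPM in KO Control and 40.1 to 66.9 CPM with a median of 54.8 CPM in KO T1D. Nrp2 had 284 to 365 CPM with a median of 311 CPM in KO Control and 323 to 424 CPM with a median of 349 CPM in KO T1D. Efnb1 had 43.2 to 71.6 CPM in KO Control and 45.9 to 74.3 CPM in KO T1D. In each of these genes the KO groups overlapped. In 0 of the 62 genes did the KO T1D mice lie wholly below or above the KO Control mice, against 0.258% of all genes. The lowest p values belonged to Ephb1, Nrp1 and Ephb4, whose log2 fold changes were 0.69, -0.18 and -0.23.

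The genotype effect was then compared in Control mice. Among the 62 genes, 0 were called (0.0278% of all genes), and 3 were lower in KO Control at an unadjusted p under 0.05, against 2.51% of all genes. These were Robo4 (log2 fold change -0.32), Slit2 (-0.28) and Sema6a (-0.37). Of the 62 genes, 48 had a log2 fold change below 0, with a median of -0.14, against 50.1% of all genes below 0. This comparison shares its WT Control mice with the comparison of T1D in WT. Robo4 had 19.6 to 31.4 CPM with a median of 25.1 CPM in KO Control, and 5 of these 6 mice were below the lowest WT Control mouse (26.8 CPM). Slit2 was narrow in KO Control, with 48.1 to 57.1 CPM, and overlapped the lower end of WT Control. Sema6a had 6.06 to 9.23 CPM in KO Control, within or just below the WT Control range.

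In T1D mice, 0 of the 62 genes were called between KO T1D and WT T1D in edgeR (0.0905% of all genes). At an unadjusted p under 0.05, 10 were higher in KO T1D and 1, Ntn4, was lower, against 8.44% and 8.65% of all genes. The 10 were Slit1, Slit2, Robo2, Sema4d, Sema5a, Nrp2, Plxnb1, Efnb1, Unc5b and Dcc, with 2 Slit ligands and 1 Robo receptor among them. DESeq2 called 2 of the 62 higher, Slit2 (log2 fold change 0.46 ± 0.13, DESeq2 adjusted p = 0.0342) and Nrp2 (0.70 ± 0.20, DESeq2 adjusted p = 0.0390), and 0.606% of all genes. The edgeR adjusted p values of Slit2, Nrp2 and Sema5a, the 3 lowest, were 0.116, 0.141 and 0.172. The lowest KO T1D mouse for Nrp2 (323 CPM) was level with the highest WT T1D mouse (322 CPM). This comparison shares its WT T1D mice, A3905 and A3906 among them, with the comparison of T1D in WT. Without the pair, 4 of the 62 genes were higher and 1 lower at an unadjusted p under 0.05 in edgeR, against 6.47% of all genes in either direction, and the median log2 fold change of the 62 genes was 0.05 rather than 0.11. DESeq2 was not run without the pair. With the erythroid covariate, 2 were higher and 2 lower (6.39% of all genes in either direction), and within the A36 to A39 mice 25 were higher and 2 lower (29.3%).

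The difference between the T1D effects in the 2 genotypes was tested with the interaction term. Of the 62 genes, 0 were called in edgeR (0.0% of all genes) and 0 in DESeq2. At an unadjusted p under 0.05, 9 genes had an interaction above 0, a less negative change in mice labelled KO, against 4.81% of all genes, and 0 had one below 0. In ascending order of p they were Slit2, Nrp2, Sema5a, Efnb1, Sema6a, Sema6d, Efnb2, Sema4d and Plxna1. With DESeq2, 12 genes had an unadjusted p under 0.05, all above 0, against 10.4% of all genes in either direction. The interaction of Slit2 was 0.75 ± 0.18 on the log2 scale (unadjusted p = 0.000386, adjusted p = 0.479, edgeR), and that of Nrp2 was 0.94 ± 0.30 (unadjusted p = 0.00506, edgeR). Without A3905 and A3906, 5 genes had an interaction above 0 and 0 below 0 at an unadjusted p under 0.05 (4.66% of all genes in either direction), and the median over the 62 genes was 0.19 rather than 0.32. With the erythroid covariate there was 1 above 0 (3.65% of all genes in either direction), and within the A36 to A39 mice there were 25 above and 2 below 0 (22.3%). A different response of the 62 genes in the 2 genotypes was therefore not established at the adjusted threshold.

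Several of these genes are neighbours in the genome. Efna1, Efna3 and Efna4 lie in a row on chromosome 3, with 33.0 and 10.4 kb between them, and their log2 fold changes in WT mice were -0.19, -0.02 and -0.50. Robo4 and Robo3 lie 2.02 kb apart on chromosome 9 and had log2 fold changes of -0.21 and -0.35. Sema3b and Sema3f lie 72.3 kb apart on the same chromosome and had log2 fold changes of -0.65 and -0.06.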

How the data were processed

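RNA was measured by paired-end RNA-Seq of oligo dT libraries on the DNBSEQ platform, 1 library per mouse. The authors deposited 2 tables. The first, as deposited, holds expected counts that RSEM estimated per gene, already rounded and without scaling. The second holds TPM as computed by the company that sequenced the libraries, also deposited as such. Per the labels and the study's methods, SOAPnuke filtered the reads, and HISAT and Bowtie2 placed them on GRCm38.p6, with versions not given in the sources used here. Filtering, alignment and counting are part of these values. Near-identical copies and overlapping genes share reads, so their counts are uncertain.

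Groups came from the library labels. No mouse was shared between groups. Symbols were matched from the TPM to the count table by gene ID. Ntng1, Ntng2, Unc50 and Unc5cl were left out by the naming rule. Genes reaching 10 counts in 5 or more libraries were tested in R 4.3.3 with edgeR 4.0.16 (TMM, quasi-likelihood, a 2-way model of genotype and T1D over all 4 groups, Benjamini-Hochberg over 14364 genes, threshold 0.05). Alternatives were DESeq2 1.42.0, limma 3.58.1 on log2(TPM + 1) or log2(TPM + 0.1), other scalings, no filter, subsets of mice, an erythroid covariate (mean log2(CPM + 0.5) of its markers) and leaving out each mouse. The procedure was tested on simulated data. Figures used Python 3.11.15 and matplotlib 3.10.9.

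Named genes had an adjusted p under 0.05 in any comparison, an unadjusted p under 0.05 in WT mice or for the interaction, 1 of the 3 lowest p in another comparison, or the highest TPM of their family. Of pathway genes, those called and at most the 5 lowest p were named. Robo1, Robo2, Slit1, Epha7, Sema4f and the genome neighbours outside this rule were chosen after their values were seen. The genes and lists were chosen with earlier results of these data known.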

Additional observations from a re-analysis of the deposited data

Results flagged for a closer look

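For the 32 named genes in the 4 groups, 128 sets of mice were examined for a mouse far from the others of its group, and 4 had one by Dixon's criterion at the 95% level. Chance alone flags about 1 in 20 groups. Robo4 was at 19.55 CPM in WT T1D mouse A3906, below the next mouse at 27.13 CPM. Sema4c was at 17.03 CPM in KO Control mouse A3766, above the next mouse at 13.33 CPM. Slit3 was at 68.48 CPM in KO Control mouse A3670, above the next at 50.2 CPM, and at 63.54 CPM in KO T1D mouse A3674, above the next at 48.44 CPM.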

How the results depend on the processing

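For T1D in WT, the count of the 62 genes called lower moved from 1 to 12 with DESeq2 (2.85% of all genes). It was 36 with limma on log2(TPM + 1) and 35 with limma on log2(TPM + 0.1) (35.3% and 35.5%). Within the A36 to A39 mice it was 22 (7.6%), and with the ID series as a term 5 (2.25%). It was 0 both without A3905 and A3906 and with the erythroid covariate, where 0 of all genes were called lower. It was 1 with DESeq2 size factors, total counts only, or no filter (0.787%, 1.32% and 0.156% of all genes). Leaving out each mouse in turn gave 0 to 12, with 0 without A3767, A3903, A3907 or A3905, 5 without A1758, 7 without A1757 or A1764, and 12 without A3909. Of all 14364 genes, 0 were called lower without A3767 or A3907, 1 without A3903 and 3 without A3905. There were 208 without A1758, 287 without A1757, 358 without A1764 and 589 without A3909. The count called higher moved from 0 to 1 within the A36 to A39 mice and with the ID series as a term (7.76% and 3.33% of all genes), in both Sema6b. In the 23 fits that left out 1 mouse, the Slit2 log2 fold change lay between -0.81 and -0.66, with an adjusted p between 0.0076 and 0.0798 that was under 0.05 in 19. For KO T1D against WT T1D, the count called higher moved from 0 to 2 with DESeq2 or the ID series (0.606% and 2.46% of all genes). It was 7 with limma at both pseudocounts (7.89% and 8.04%) and 10 within the A36 to A39 mice (5.63%), where 2 were called lower (5.08%). Changes of sign in WT were seen for Sema4a (-0.21 and -0.22 with limma at pseudocounts 1 and 0.1, -0.10 without A3905 and A3906), Sema6b (-0.018) and Sema3d (0.0035) without A3905 and A3906, and Nrp1 (0.052), Robo4 (0.058), Sema3d (0.36) and Unc5b (0.00048) with the erythroid covariate. The cause of these moves was not tested, apart from the scale: with limma on TPM the median gene moved by -0.24 and -0.29 in WT T1D. The erythroid score and T1D moved together in WT mice, so their parts cannot be told apart. No paired analysis was possible because the groups shared no mouse numbers. Low counts, as for Dcc, Slit1 and Ephb1, limit what could be detected.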
